A study of Mus musculus with 7 samples.

Results

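The natriuretic peptide system was followed in the atrioventricular canal of mouse embryos that lack Hand2 and of wild-type embryos. Its 6 genes are the peptide genes Nppa, Nppb and Nppc and the receptor genes Npr1, Npr2 and Npr3. They were chosen by symbol among the 23284 gene symbols counted. All 6 had a row, and 5 of them were among the 14290 genes that passed the filter on low counts. The Hand2 gene encodes a DNA-binding factor of the basic helix-loop-helix class, and the study's title concerns the development of the heart valves. The Hand2 null embryos carry a germline deletion of all coding sequence of the gene in every cell, so heart muscle, endocardium and blood lack it alike. Both genotypes came from outbred NMRI mice at 18 to 23 somites, annotated as early on gestational day 9 although the sample titles read day 9.5. Each library was made from 4 pooled canals, with 4 Hand2 null libraries (replicates 1 to 4) and 3 wild-type libraries (replicates 2 to 4). The pools were balanced for somite stage and sex, so a single embryo's level cannot be read from them.

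Natriuretic peptides are small ring-shaped hormones cut from larger precursors. Nppa encodes atrial natriuretic peptide, Nppb encodes brain natriuretic peptide and Nppc encodes C-type natriuretic peptide. Npr1 and Npr2 are membrane guanylyl cyclases that make cyclic GMP (cGMP) when they bind a peptide: Npr1 responds to the atrial and brain peptides, and Npr2 to the C-type peptide. Npr3 lacks the cyclase part, binds all 3 peptides and removes them. In the embryonic heart Nppa and Nppb mark the working muscle of atria and ventricles, Nppa is kept off in canal muscle by the T-box repressors TBX2 and TBX3, and Npr3 is used as a marker of the endocardium.

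Nppb and Nppa are neighbours on chromosome 4, both on the plus strand, with no other counted gene between them. Their promoters are shown because both transcripts were high and low in the same libraries, as described further on. The sequences are those of RefSeq on build GRCm38.p6, while the reads were aligned to build mm9. Each runs from 250 bases before to 50 bases after a transcription start. Capitals mark letters searched for on both strands: the T-box half-site AGGTGT (read as ACACCT on the other strand), the GATA letters TGATAA and AGATAA, the NKX letters AAGTG and the TATA letters TATAAA.
Nppa, chr4:148000472-148000771, plus strand: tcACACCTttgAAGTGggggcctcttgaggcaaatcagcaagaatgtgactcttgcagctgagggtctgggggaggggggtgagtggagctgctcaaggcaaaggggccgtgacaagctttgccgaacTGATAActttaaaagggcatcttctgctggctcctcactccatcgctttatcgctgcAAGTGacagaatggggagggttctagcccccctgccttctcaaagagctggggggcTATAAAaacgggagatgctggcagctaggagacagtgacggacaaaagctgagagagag
Nppb, chr4:147985650-147985949, plus strand: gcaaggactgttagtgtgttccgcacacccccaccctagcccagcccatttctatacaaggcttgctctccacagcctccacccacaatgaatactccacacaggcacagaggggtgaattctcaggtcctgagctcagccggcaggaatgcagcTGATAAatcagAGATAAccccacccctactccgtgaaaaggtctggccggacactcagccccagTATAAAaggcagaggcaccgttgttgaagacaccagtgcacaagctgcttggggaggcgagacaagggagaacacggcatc
Relative to the start site, the Nppa window holds the T-box half-site at -248, NKX letters at -239 and -65, and TGATAA at -122. The Nppb window holds TGATAA at -95 and AGATAA at -84, and neither the T-box nor the NKX letters occur in it. Both hold TATAAA. The E-box letters CANNTG, the kind of sequence that basic helix-loop-helix factors bind, occur in the Nppa window as CAGCTG at -195 and as CAAGTG at -66, which overlaps the NKX letters, and in the Nppb window as CAGCTG at -99. Among 27025 promoters of the same length, 13.9% hold the T-box half-site, 46.5% the NKX letters, 9.26% TGATAA, 11.4% AGATAA, 14.2% TATAAA and 72.1% CANNTG. These are matches of letters in 1 window per gene, and nothing was measured on binding.

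The libraries held 27905601 to 44860753 reads in genes. Hand2 had 7, 26, 10 and 14 reads in the Hand2 null libraries, against 2123, 1224 and 1194 reads in the wild-type libraries, so each library matched its label. Levels are given as counts per 1000000 reads in genes (CPM). Genotypes were compared by edgeR's quasi-likelihood F test fitted to all genes, with calls made where the p adjusted by Benjamini and Hochberg's method lay under 0.05. Of 14290 genes, 892 (6.24%) were called, 587 (4.11%) higher and 305 (2.13%) lower in Hand2 null canals. These counts depend on single libraries. They were 284 higher and 90 lower without Hand2 null replicate 1, 389 and 150 without Hand2 null replicate 2, 946 and 652 without Hand2 null replicate 3, 210 and 46 without wild-type replicate 2, and 246 and 68 without wild-type replicate 3.

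None of the 5 tested natriuretic genes was called, with 0 of 5 at an unadjusted p under 0.05, where 24.4% of all genes lay, and 0 of 5 called by DESeq2. Nppa, Nppb, Npr1 and Npr2 had fitted values above 0 and Npr3 had one below 0, and every 95% interval contained 0. The transcripts spanned a wide range of abundance, with Nppa among the most abundant of the tissue and Nppc close to the detection floor.

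Nppa was measured at 1220, 1070, 1470 and 1140 CPM in Hand2 null replicates 1 to 4, against 958, 1120 and 466 CPM in wild-type replicates 2 to 4. The groups overlapped, since wild-type replicate 3 lay above Hand2 null replicate 2, and wild-type replicate 4 stood well below the other 6 libraries. The mean was 1230 ± 175 CPM in Hand2 null (SD, n = 4) and 849 ± 342 CPM in wild type (SD, n = 3). The log2 fold change was 0.51 (SE 0.258, 95% interval -0.05 to 1.07, edgeR adjusted p = 0.245). As a fold, that interval ran from 0.967 to 2.11. The value was 0.21 without wild-type replicate 4 (edgeR adjusted p = 0.548) and 0.78 without wild-type replicate 3 (edgeR adjusted p = 0.192). Reads were not assigned by strand, and 532 of the 865 exonic bases of Nppa are overlapped by an antisense transcript, Gm13054, in the GENCODE annotation of GRCm38, so the 2 cannot be told apart here. Antisense transcripts also overlap 559 exonic bases of Npr1, 266 of Npr2 and 321 of Npr3.

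Nppb was measured at 322, 295, 637 and 367 CPM in Hand2 null replicates 1 to 4, against 237, 382 and 167 CPM in wild-type replicates 2 to 4. Hand2 null replicate 3 was the highest library and wild-type replicate 4 again the lowest, and the groups overlapped. The means were 405 ± 158 CPM in Hand2 null (SD, n = 4) and 262 ± 110 CPM in wild type (SD, n = 3). The log2 fold change was 0.61 (SE 0.314, 95% interval -0.07 to 1.30, edgeR adjusted p = 0.254), a fold of 0.952 to 2.46 at the bounds. It was 0.29 without Hand2 null replicate 3 (edgeR adjusted p = 0.465), 0.36 without wild-type replicate 4 (edgeR adjusted p = 0.527) and 1.01 without wild-type replicate 3 (edgeR adjusted p = 0.147).

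**Figure D1:**
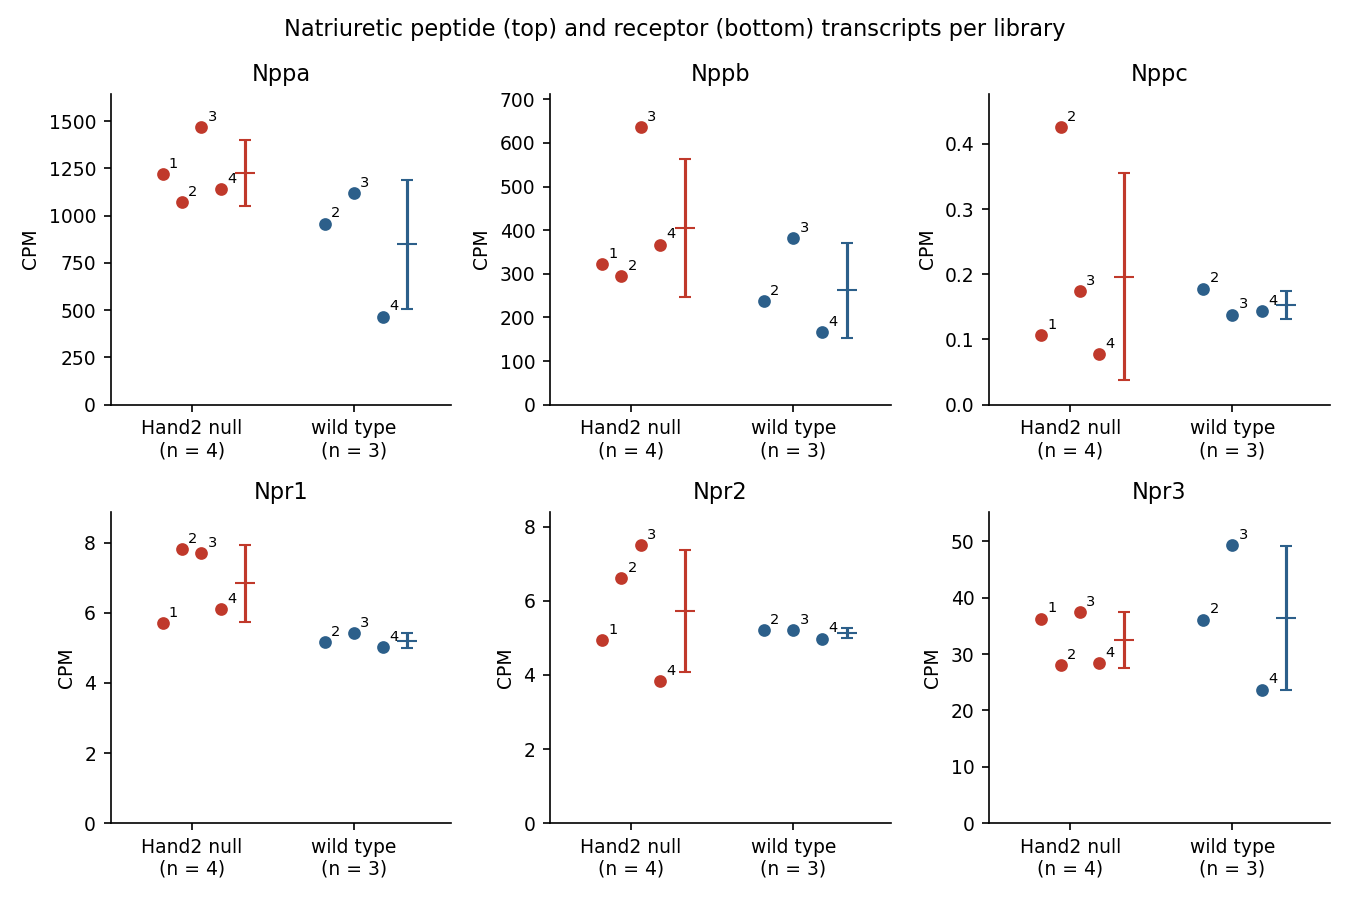
CPM of each natriuretic gene per library on linear axes from 0, with Hand2 null (red, n = 4) left of wild type (blue, n = 3). Digits are replicate numbers, and the bar beside each group is its mean ± SD. Wild-type replicate 4 is lowest for Nppa, Nppb and Npr3, and Npr1 is the gene whose groups do not overlap.

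Nppa and Nppb were high and low in the same libraries. On the log2 CPM scale their Pearson correlation over the 7 libraries was 0.889 (exact permutation p = 0.00734, two-sided, n = 7), and Spearman's rho was 0.893 (exact permutation p = 0.0123, two-sided, n = 7). Without wild-type replicate 4 and Hand2 null replicate 3, the libraries farthest from the median of Nppa, r was 0.798 over 5 libraries. The permutation exchanged libraries across genotypes, so a genotype difference shared by both genes enters its p. Within genotypes, r was 0.917 in Hand2 null (n = 4) and 0.909 in wild type (n = 3). The correlation was not particular to the pair, as Cck reached 0.949 with Nppa and 1700017B05Rik reached 0.979 with Nppb. The relation of Nppa to Nppb was the one of this kind tested. Per kilobase of annotated exon, there were 0.292, 0.305, 0.479 and 0.356 Nppb transcripts for each Nppa transcript in Hand2 null replicates 1 to 4, against 0.274, 0.377 and 0.396 in wild-type replicates 2 to 4. The mean ratio was 0.358 ± 0.0852 in Hand2 null (SD, n = 4) and 0.349 ± 0.0656 in wild type (SD, n = 3), a difference smaller than the spread in either group.

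Nppc, the C-type peptide gene, had 4, 14, 5 and 3 reads in Hand2 null replicates 1 to 4, against 8, 4 and 4 reads in wild-type replicates 2 to 4. A count of 3 corresponds to 0.0669 to 0.108 CPM, so Nppc lay at or above that floor in all 7 libraries, highest at 0.426 CPM in Hand2 null replicate 2, and did not pass the filter for testing. Pooled by genotype, 26 reads in Hand2 null and 16 reads in wild type gave 0.189 CPM in Hand2 null and 0.157 CPM in wild type. Their ratio was 1.2, with a 95% exact Poisson interval of 0.619 to 2.39 that covers counting error only. Hand2 null replicate 2 held 14 of the 26 reads, and without it the log2 ratio of mean CPM was -0.36, against 0.36 with all libraries. A difference of that size was not detectable at this depth.

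Npr1, the receptor of the atrial and brain peptides, was measured at 5.70, 7.82, 7.71 and 6.11 CPM in Hand2 null replicates 1 to 4, against 5.17, 5.43 and 5.02 CPM in wild-type replicates 2 to 4. Every Hand2 null library lay above every wild-type library. Among all genes tested, 11.6% had Hand2 null libraries all above wild type and 21.8% had no overlap in either direction. The log2 fold change was 0.37 (SE 0.201, 95% interval -0.07 to 0.81, edgeR adjusted p = 0.282), and the bounds as folds were 0.954 and 1.75. It stayed between 0.29 and 0.42 when any 1 library was left out.

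Npr2, the receptor of the C-type peptide, was measured at 4.95, 6.61, 7.5 and 3.83 CPM in Hand2 null replicates 1 to 4, against 5.22, 5.22 and 4.98 CPM in wild-type replicates 2 to 4. Hand2 null libraries lay on both sides of the closely spaced wild-type libraries. The SD was 1.65 CPM in Hand2 null (n = 4) and 0.138 CPM in wild type (n = 3). The log2 fold change was 0.13 (SE 0.252, 95% interval -0.42 to 0.68, edgeR adjusted p = 0.789), and it was -0.04 without Hand2 null replicate 3 (edgeR adjusted p = 0.932).

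Npr3, the clearance receptor, was measured at 36.3, 28.1, 37.4 and 28.4 CPM in Hand2 null replicates 1 to 4, against 36.1, 49.3 and 23.7 CPM in wild-type replicates 2 to 4. The wild-type libraries held both the highest and the lowest value. The log2 fold change was -0.18 (SE 0.236, 95% interval -0.69 to 0.34, edgeR adjusted p = 0.69), and the bounds as folds were 0.619 and 1.26. It was -0.42 without wild-type replicate 4 (edgeR adjusted p = 0.259) and 0.12 without wild-type replicate 3 (edgeR adjusted p = 0.856).

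**Figure D2:**
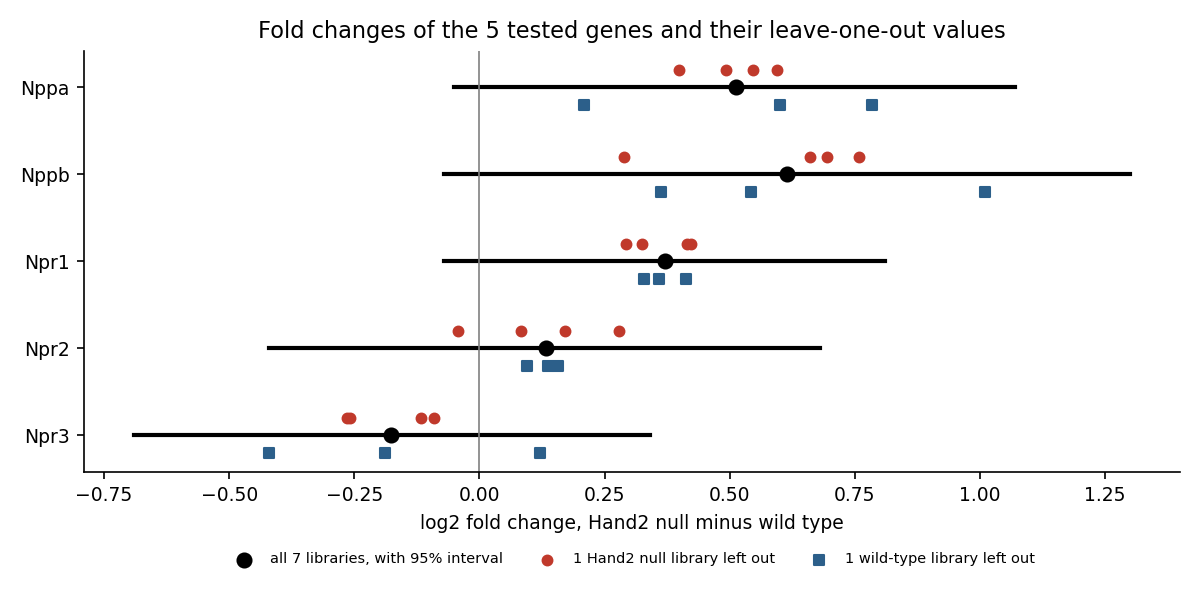
Log2 fold change of the 5 tested genes (Hand2 null minus wild type) on a linear axis. Black dots and bars are the values and 95% intervals with all 7 libraries, red dots leave out 1 Hand2 null library and blue squares leave out 1 wild-type library. All intervals cross 0, and Npr2 and Npr3 are the genes with a leave-one-out value on the other side of 0.

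Levels of the 6 genes can be set beside each other only per length, here as CPM per kilobase of annotated exon. On this scale Nppa stood at 1420 ± 203 in Hand2 null (SD, n = 4) and 981 ± 395 in wild type (SD, n = 3), and ranked 15 to 103 among 20882 genes with a length, depending on the library. Nppb stood at 519 ± 202 in Hand2 null and 335 ± 140 in wild type (SD, n = 4 and 3). Then came Npr3, at 3.47 ± 0.534 in Hand2 null and 3.87 ± 1.37 in wild type, followed by Npr1 (1.43 ± 0.227 in Hand2 null, 1.09 ± 0.0437 in wild type) and Npr2 (1.23 ± 0.353 in Hand2 null, 1.10 ± 0.0295 in wild type). The order of Npr1 and Npr2 was not settled. Npr2 per Npr1 was 0.849 ± 0.149 in Hand2 null, below 1 in all 4 libraries, and 1.01 ± 0.0244 in wild type (SD, n = 4 and 3). With the longest coding transcript as length, the wild-type level was 1.40 for Npr2 and 1.28 for Npr1. Nppc was last, at 0.188 ± 0.152 in Hand2 null and 0.147 ± 0.0209 in wild type. The peptide and receptor levels of the tissue thus lay far apart, with the lowest Nppb library (213 in wild-type replicate 4) above the highest Npr3 library (5.25 in wild-type replicate 3).

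Npr3 made up 63.2%, 49.5%, 55.3% and 59.0% of the receptor transcripts per kilobase in Hand2 null replicates 1 to 4, against 63.6%, 70.0% and 54.3% in wild-type replicates 2 to 4. The groups overlapped. There were 3.24, 1.83, 2.47 and 2.36 Npr3 transcripts for each Npr1 transcript in Hand2 null replicates 1 to 4, against 3.56, 4.62 and 2.40 in wild-type replicates 2 to 4. The means were 2.48 ± 0.583 in Hand2 null (SD, n = 4) and 3.53 ± 1.11 in wild type (SD, n = 3), with overlapping values.

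Marker lists were read in the same libraries, because in pooled tissue fewer cells of a type and less RNA per cell cannot be told apart. The myocardial list summed to 33400 to 39710 CPM in Hand2 null and 32760 to 37190 CPM in wild type. Its members gave 0 of 10 called by edgeR and 3 at an unadjusted p under 0.05 (24.4% over all genes). The median log2 fold change was 0.06 beside 0.02 over all genes. The most abundant members were Myl7 and Actc1, a myosin light chain and the cardiac actin, with log2 fold changes of 0.04 and 0.12. Named after their values were seen, the 3 were Actn2 (0.708, edgeR adjusted p = 0.0581), Tnni1 (-0.335, edgeR adjusted p = 0.127) and Tnnc1 (-0.33, edgeR adjusted p = 0.192). Tnni1 had Hand2 null wholly below wild type, as had 10.3% of all genes. DESeq2 called 1 member higher, where it called 993 of the 23284 symbols given to it higher. So did edgeR without Hand2 null replicate 3 or without wild-type replicate 4. Relative to this list, Nppa stood at 35.0, 27.9, 37.1 and 34.2 CPM per 1000 CPM in Hand2 null replicates 1 to 4, against 27.0, 30.2 and 14.2 in wild-type replicates 2 to 4. The same measure for Nppb was 9.2, 7.69, 16 and 11 in Hand2 null, against 6.69, 10.3 and 5.09 in wild type. Members of the list moved in both directions, so a ratio to its sum is not a level per cell. Wild-type replicate 4 stood lowest for both peptides also relative to that sum.

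The sum of the canal myocardium list was highest in that library, while single members went both ways. The list sum was 265.9, 294.6, 324.1 and 236.9 CPM in Hand2 null replicates 1 to 4, against 224.3, 214.6 and 381.1 CPM in wild-type replicates 2 to 4. Among its members, the repressor gene Tbx3 had 79.3, 102, 75.9 and 94.1 CPM in Hand2 null, against 57.7, 41.9 and 97.4 CPM in wild type, and the ligand gene Bmp2 had 77.2, 84.8, 105 and 51.0 CPM in Hand2 null, against 78.7, 79.3 and 123 CPM in wild type. Wild-type replicate 4 had the most of its group for 5 of the 7 members (Bmp2, Tbx3, Msx2, Rspo3 and Cacna1g) and the least for the other 2. These were Tbx2, the other repressor of Nppa, with 5.76, 5.15, 9.91 and 3.6 CPM in Hand2 null, against 9.83, 10.1 and 8.39 CPM in wild type, and the pacemaker channel gene Hcn4, with 4.55, 4.14, 6.66 and 3.75 CPM in Hand2 null, against 5.71, 7.71 and 3.37 CPM in wild type. It also had the highest sums of the cushion mesenchyme list (273.5 CPM, against 136.3 and 170.5 CPM in the other wild-type libraries) and of the blood list (22060 CPM, the highest of all 7 libraries). The part of these differences in the Nppa and Nppb values was not tested.

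No member of the canal list was called by edgeR (0 of 7, with 1 at an unadjusted p under 0.05, beside 24.4% of all genes). The genes of the chamber myocardium list mark the working muscle that also expresses Nppa. Their median log2 fold change was -0.33, and that of the canal list was -0.25. The chamber list sum was 1452 to 1701 CPM in Hand2 null and 1794 to 2722 CPM in wild type. These sums did not overlap, where 10.3% of all genes had Hand2 null wholly below. Myl2 alone gave 640 to 752 CPM of the sum in Hand2 null and 972 to 1520 CPM in wild type. Of the chamber list's 10 members, 3 fell and 1 rose, where 2.13% of all genes fell and 4.11% rose. The phospholamban gene Pln fell (log2 fold change -1.69, edgeR adjusted p = 0.000392), as did the ventricular myosin light chain gene Myl2 (-0.86, edgeR adjusted p = 0.0107) and the ventricular factor Irx4 (-0.71, edgeR adjusted p = 0.0127), while the connexin gene Gja5 rose (1.05, edgeR adjusted p = 0.0471). Pln kept its call with any 1 library left out. Myl2 and Irx4 lost theirs without wild-type replicate 2 (edgeR adjusted p = 0.0597 and 0.0903) or wild-type replicate 3 (0.0712 and 0.0772). Gja5 kept its call only without Hand2 null replicate 3 (log2 fold change 1.25, edgeR adjusted p = 0.00402), and lost it without any other library (edgeR adjusted p = 0.0683 to 0.133), with upper-quartile scaling (0.0506) and with library size as the only scaling (0.0515).

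**Figure D3:**
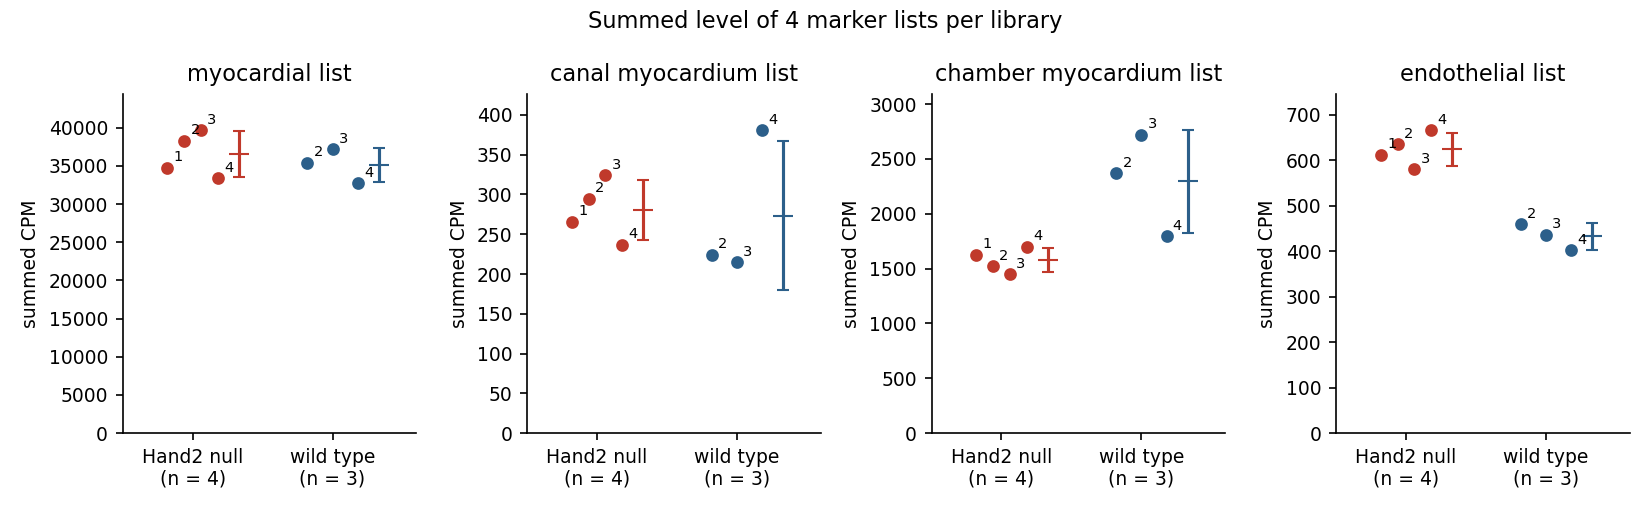
Summed CPM of the myocardial, canal myocardium, chamber myocardium and endothelial lists per library on linear axes from 0, with Hand2 null (red, n = 4) left of wild type (blue, n = 3), replicate numbers as digits and mean ± SD beside each group. The chamber and endothelial sums do not overlap between genotypes, and wild-type replicate 4 has the highest canal sum, at 381.1 CPM.

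The endothelial list, the one closest to the cells in which Npr3 is known, stood higher in sum without overlap, at 580.4 to 666.9 CPM in Hand2 null and 401.7 to 460.3 CPM in wild type. Over all genes 11.6% had Hand2 null wholly above. The marker lists were chosen with earlier results of these data known, so their counts are descriptions and no test. Of the 12 endothelial members 6 rose (4.11% over all genes) and none fell, and 4 to 6 rose when any 1 library was left out. By smallest p, the first were Tie1 (log2 fold change 1.10), Esam (1.11), Kdr (0.94) and Pecam1 (0.74). Named after their values were seen, Nfatc1 (-0.09) and Tek (0.08) lay near 0. Eng (-0.34) was not called but had Hand2 null wholly below wild type, as had 10.3% of all genes. The list thus did not move as one, and a ratio to its sum is not a level per cell. Relative to this list, Npr3 stood at 59.3, 44.1, 64.5 and 42.5 CPM per 1000 CPM in Hand2 null replicates 1 to 4, against 78.5, 113 and 58.9 in wild-type replicates 2 to 4. The groups overlapped, as wild-type replicate 4 lay below Hand2 null replicates 1 and 3. The mean was 52.6 ± 10.9 in Hand2 null (SD, n = 4) and 83.4 ± 27.4 in wild type (SD, n = 3), a log2 ratio of -0.67, against -0.16 for the plain CPM. Other marker lists gave 6 of 8 cushion mesenchyme genes lower and none higher, and 1 of 6 blood genes lower, where 2.13% of all genes fell. None of 6 epicardial genes was called by edgeR (2 at an unadjusted p under 0.05, beside 24.4% of all genes). By smallest p, the first cushion genes were Twist1 (log2 fold change -2.10), Postn (-2.04), Sox9 (-1.27) and Snai1 (-1.25). The uncalled cushion genes were Prrx1 (-0.07) and Prrx2 (-0.37). The cushion count was 1 without Hand2 null replicate 1, and 3 when either replicate 2 or replicate 4 of wild type was left out. Leaving out Hand2 null replicate 2 together with wild-type replicate 4 gave 1. The blood count was 2 without Hand2 null replicate 2. It was 0 without Hand2 null replicate 1, without any 1 wild-type library and with library size as the only scaling. Of the endoderm list 4 members were tested and 2 rose (4.11% over all genes), both keratins (Krt8 and Krt18). Only 1 rose without Hand2 null replicate 1 or without any 1 wild-type library. The other tested members, Epcam and Cldn6, had log2 fold changes of 0.17 and -0.04. The defining endoderm genes Foxa2 and Shh did not pass the filter.

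The proteins that cut and degrade the peptides were next. Corin cuts the precursor of atrial natriuretic peptide, and furin and PCSK6 cut other precursors. None of the 5 tested genes of peptide processing and clearance was called by edgeR, with 3 at an unadjusted p under 0.05 (24.4% over all genes). DESeq2 called 2, both lower. Over the 23284 symbols given to it without the filter on low counts, it called 993 higher and 768 lower. The sixth, Ostn, which encodes a ligand of the clearance receptor, had 0 reads in all 7 libraries. Corin, named here after its values were seen, was at 23.0 ± 4.15 CPM in Hand2 null and 15.6 ± 4.20 CPM in wild type (SD, n = 4 and 3; log2 fold change 0.54, SE 0.203, edgeR adjusted p = 0.127). Pcsk6, also named after its values were seen, had the largest difference of the list. It had 3.88, 2.89, 4.08 and 6.78 CPM in Hand2 null replicates 1 to 4, against 12.5, 14.9 and 4.26 CPM in wild-type replicates 2 to 4, a log2 difference of -1.28 (SE 0.387, edgeR adjusted p = 0.0705). Furin was at 52.7 ± 10.3 CPM in Hand2 null and 76.4 ± 9.85 CPM in wild type (log2 difference -0.55, SE 0.174, edgeR adjusted p = 0.0815). It passed without Hand2 null replicate 3 (-0.71, edgeR adjusted p = 0.0121) and with DESeq2 (-0.56, adjusted p = 0.0332). The peptide-degrading enzyme gene Ide was at 51.9 ± 12.9 CPM in Hand2 null and 49.4 ± 1.30 CPM in wild type, with a log2 fold change of 0.05.

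Other sources of cGMP and the proteins that respond to it were read next. Of 10 other guanylyl cyclase genes (with the nitric oxide synthase Nos3), 5 were tested and 1 rose, where 4.11% of all genes rose. This was Gucy1a3, which encodes a subunit of the soluble guanylyl cyclase that nitric oxide activates. It had 107, 99.6, 109 and 91.8 CPM in Hand2 null replicates 1 to 4, against 54.9, 65.8 and 50.6 CPM in wild-type replicates 2 to 4. Hand2 null lay wholly above, as for 11.6% of all genes (log2 fold change 0.82, SE 0.151, edgeR adjusted p = 0.00852). The call was lost without wild-type replicate 2 (0.78, edgeR adjusted p = 0.0713). Its partner subunit gene Gucy1b3, outside the naming rule, had 45.9 ± 5.53 CPM in Hand2 null and 32.0 ± 1.22 CPM in wild type (SD, n = 4 and 3), with an edgeR adjusted p of 0.0513. It passed without Hand2 null replicate 3 (edgeR adjusted p = 0.0262) and with DESeq2 (adjusted p = 0.0119).

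Of 18 tested cGMP effectors and phosphodiesterases, 2 rose and none fell, beside 4.11% higher and 2.13% lower over all genes, and the list's median log2 fold change was 0.14 beside 0.02. Pde2a, a phosphodiesterase that cGMP stimulates, had 18.3, 22.2, 14.8 and 15.9 CPM in Hand2 null replicates 1 to 4, against 6.53, 5.81 and 5.59 CPM in wild-type replicates 2 to 4. The groups were far apart (log2 fold change 1.55, SE 0.186, edgeR adjusted p = 0.000681), and the call held with any 1 library left out. Prkg1, the cGMP-dependent protein kinase, had 79.0, 108, 91.6 and 77.7 CPM in Hand2 null, against 59.5, 59.9 and 50.9 CPM in wild type. It also lay wholly above in Hand2 null, as did 11.6% of all genes (log2 fold change 0.62, SE 0.147, edgeR adjusted p = 0.0284). Prkg1 kept its call without Hand2 null replicate 3 and without replicate 4. It lost it without Hand2 null replicate 1 (edgeR adjusted p = 0.0616) and without Hand2 null replicate 2 (0.0711), and without wild-type replicate 2 (0.119), 3 (0.088) and 4 (0.0881). The endothelial list, which rose in the same libraries, is given above, and its part in these values was not tested.

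**Figure D4:**
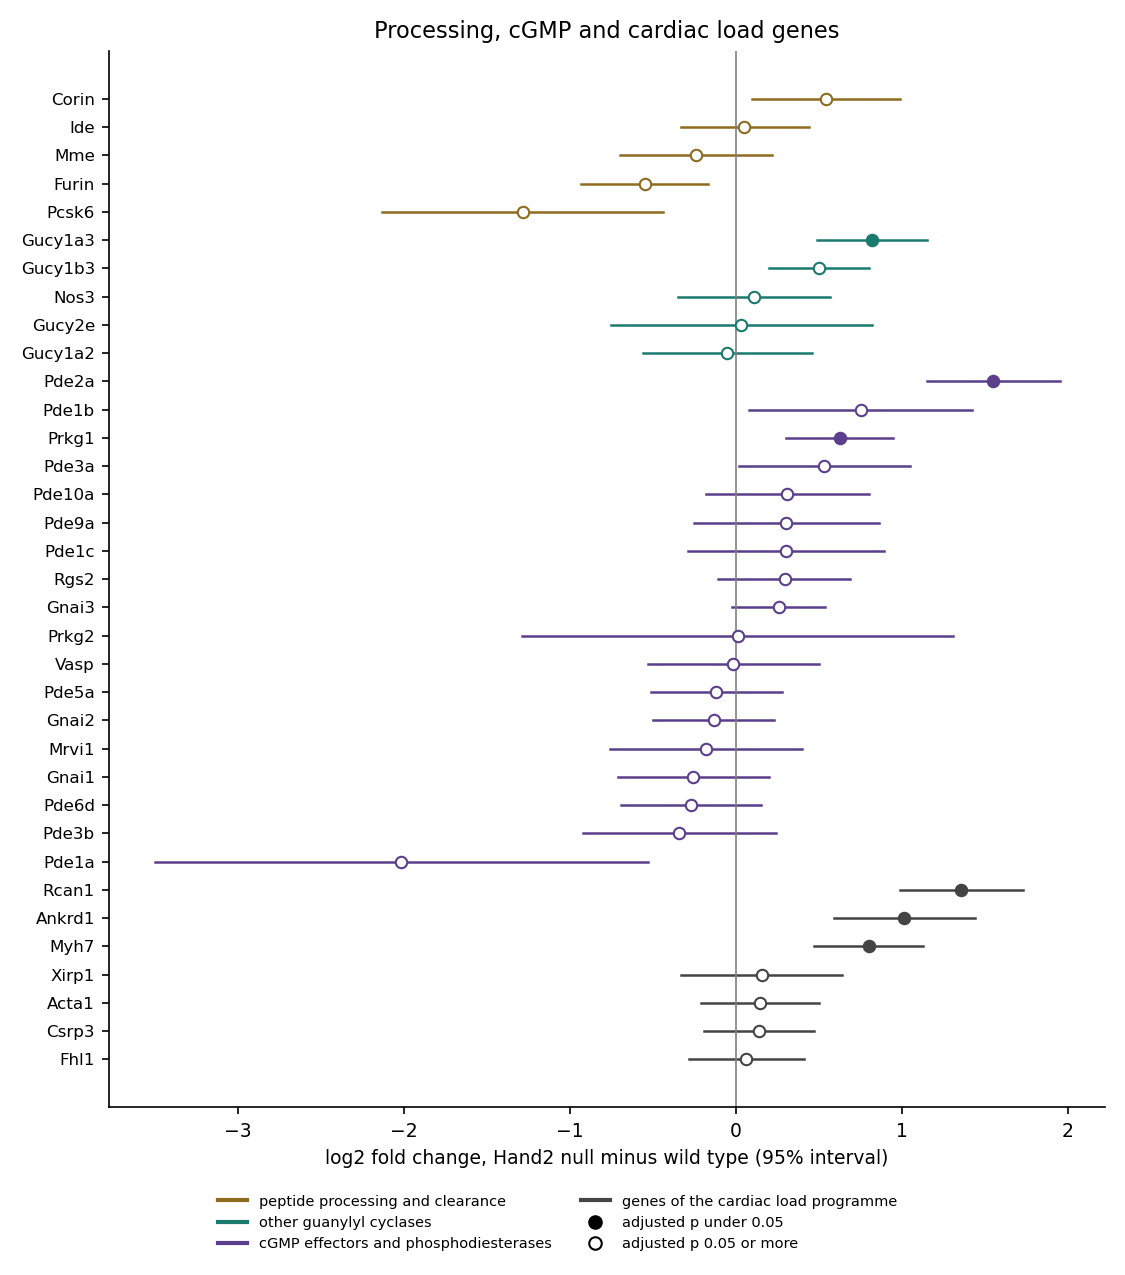
Log2 fold changes (Hand2 null minus wild type, linear axis) with 95% intervals for the tested genes of 4 lists, coloured by list. Filled dots have an edgeR adjusted p under 0.05 and open dots do not. Pde2a at 1.55 and Rcan1 at 1.36 are the highest filled dots, and no gene of the processing list is filled.

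The factors known to act on the Nppa and Nppb promoters showed 1 called gene among 18, a share near the 6.24% called over all genes. Hey1, a repressor downstream of Notch, rose to 44.5 ± 14.7 CPM in Hand2 null, against 20.7 ± 5.36 CPM in wild type (SD, n = 4 and 3; log2 fold change 1.10, edgeR adjusted p = 0.0416). It lost its call without Hand2 null replicate 1 (edgeR adjusted p = 0.102) or wild-type replicate 2 (0.183), 3 (0.0537) or 4 (0.105). The factors whose letters are capitalised in the promoters were not called. Named after their values were seen, they had log2 fold changes of -0.21 for Gata4, 0.32 for Nkx2-5, -0.64 for Tbx2, 0.40 for Tbx3 and 0.25 for Tbx5. Tbx3 passed without wild-type replicate 4 (0.78, edgeR adjusted p = 0.0333), and Tbx2 passed without Hand2 null replicate 3 (-0.996, edgeR adjusted p = 0.0219).

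Nppa and Nppb are known to rise with mechanical load on heart muscle, and other genes of that programme were read beside them. Of 7 tested, 3 rose and none fell, where 4.11% of all genes rose and 2.13% fell. The list was chosen with earlier results of these data known, so this count is a description and no test of load. Its median log2 fold change was 0.155 beside 0.022 over all genes. The uncalled members were Acta1 (0.15), Csrp3 (0.14), Xirp1 (0.155) and Fhl1 (0.06). Rcan1, an inhibitor of the phosphatase calcineurin, was at 231 ± 51.0 CPM in Hand2 null and 88.8 ± 11.6 CPM in wild type (SD, n = 4 and 3; log2 fold change 1.36, SE 0.17, edgeR adjusted p = 0.000863). Ankrd1, a stretch-responsive muscle protein gene, was at 2500 ± 611 CPM in Hand2 null and 1210 ± 217 CPM in wild type (log2 difference 1.01, SE 0.194, edgeR adjusted p = 0.0107). Myh7, the slow myosin heavy chain gene, was at 1180 ± 228 CPM in Hand2 null and 666 ± 27.3 CPM in wild type, with a log2 difference of 0.80 (SE 0.152, edgeR adjusted p = 0.01). All 3 had Hand2 null libraries wholly above wild type, as had 11.6% of all genes, and Nppa and Nppb did not. These 3 were already called on the same values, so their separation is no further result. Rcan1 kept its call with any 1 library left out, while Ankrd1 and Myh7 lost theirs without wild-type replicate 2 (edgeR adjusted p = 0.0761 and 0.0614) and Myh7 also without wild-type replicate 3 (0.058).

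On chromosome 4, the genes on either side of the peptide pair were compared. Of the 5 nearest counted genes on each side, 2 rose and none fell, where 4.11% of all genes rose, and the other 8 were not called. Clcn6, a chloride transporter gene and the next gene after Nppa, had 8.68 ± 1.63 CPM in Hand2 null and 4.13 ± 0.411 CPM in wild type (SD, n = 4 and 3; log2 fold change 1.05, SE 0.21, edgeR adjusted p = 0.0131). Plod1, a collagen lysyl hydroxylase gene and the second before Nppb, had 57.0 ± 15.4 CPM in Hand2 null and 29.1 ± 6.72 CPM in wild type (log2 difference 0.95, SE 0.214, edgeR adjusted p = 0.0239). The gene between Plod1 and Nppb, 2510039O18Rik, had a log2 fold change of -0.37 (edgeR adjusted p = 0.347). Clcn6 lost its call without Hand2 null replicate 1 (edgeR adjusted p = 0.0504) or wild-type replicate 2 (0.0628) or 3 (0.0709). Plod1 lost its call without Hand2 null replicate 1 (0.0589) and replicate 2 (0.0687), and without wild-type replicate 2 (0.125) and 3 (0.121). Around Nppc on chromosome 1, Npr1 on chromosome 3, Npr2 on chromosome 4 and Npr3 on chromosome 15, none of the 13 tested neighbours among the 2 nearest on each side was called by edgeR. Adamts12 and Tars, both beside Npr3, had an unadjusted p under 0.05, as did 24.4% of all genes.

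**Figure D5:**
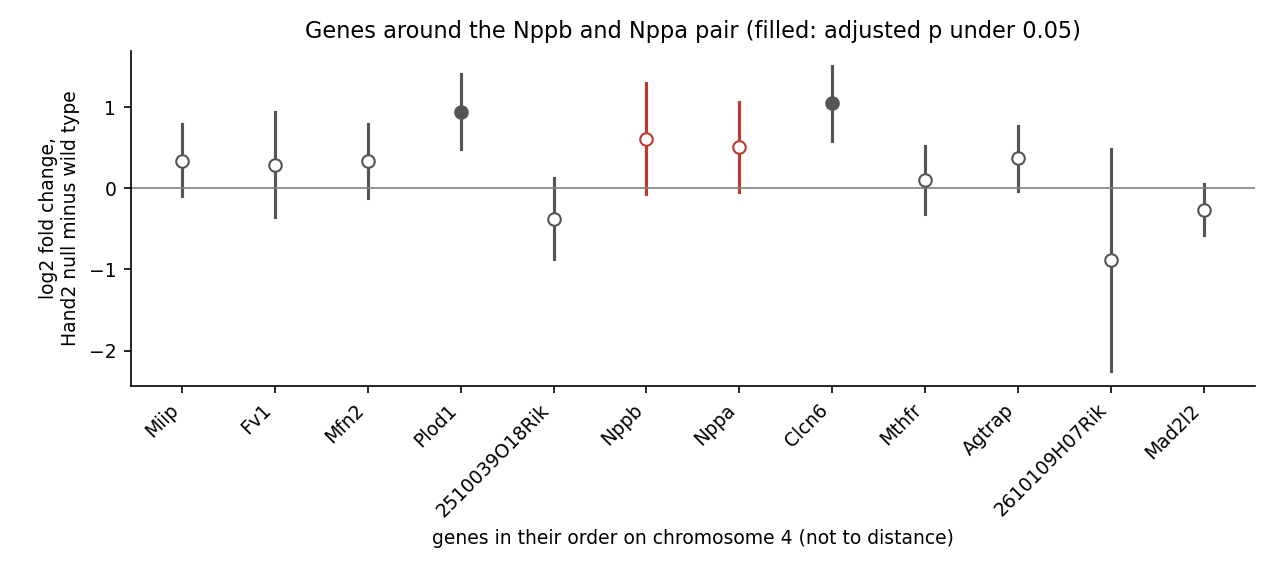
Log2 fold change (Hand2 null minus wild type) with 95% interval for Nppb and Nppa (red) and the 5 nearest counted genes on each side (grey), in chromosomal order but not to distance. Filled dots have an edgeR adjusted p under 0.05, which only Plod1 and Clcn6 of these 12 genes have.

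Taking genes that averaged 10 CPM or more, those whose log2 CPM followed each natriuretic gene most closely over the 7 libraries were listed as a description. They were Cck (Pearson r = 0.949), Cecr2 (0.944) and Efs (0.933) for Nppa, and 1700017B05Rik (0.979), Stard10 (0.969) and Dach1 (0.958) for Nppb. For the receptors they were Tinagl1 (0.988), Lpp (0.986) and Mast4 (0.98) for Npr1, Mtss1l (0.993), Fam78a (0.989) and Med13 (0.988) for Npr2, and Cdc27 (0.986), Lman1 (0.953) and Poc1b (0.941) for Npr3. They were drawn from 8463 or 8464 candidates for each gene, and the points share library, depth and genotype. Cck, a peptide hormone gene, shared the low value of wild-type replicate 4, with 30.6, 24.0, 39.4 and 28.5 CPM in Hand2 null replicates 1 to 4, against 30.1, 31.5 and 14.3 CPM in wild-type replicates 2 to 4.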

How the data were processed

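The deposited files hold whole-number read counts per gene symbol for 7 libraries. The authors made them with TopHat2 2.0.13, HTSeq and SAMtools on build mm9, per the submitters' processing notes. Neither the annotation nor the counting settings are known: not given in the sources used here. Per the labels' protocols, ribosomal RNA was depleted, cDNA was amplified from low input and 50-nt single reads without strand were sequenced. One planned wild-type pool was not sequenced. The 5 summary rows, which hold reads in no gene (7.31% to 14.21% of the total per library) and other unassigned reads, were left out. Counts were tested with edgeR 4.0.16 in R 4.3.3 (TMM scaling, filterByExpr with a minimum count of 10, quasi-likelihood F test on genotype, 5 residual degrees of freedom, Benjamini-Hochberg adjustment over 14290 genes). DESeq2 1.42.0, other scalings and filters, a replicate block and leaving out libraries were alternatives, and the code was tested on simulated data. Lengths come from GENCODE on GRCm38. Replicates are separate pools. Named genes are the members, the neighbours and, in most lists, up to 4 called genes, or the most abundant where none was called. No blood or epicardial gene is named. Others, such as Hcn4, Tbx2, Nfatc1, Epcam and Cldn6, lie outside this rule. Members and lists were chosen with earlier results of these data known.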

Additional observations from a re-analysis of the deposited data

Results flagged for a closer look

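Of the 50 sets screened, all within the 4 Hand2 null libraries, 1 held a value that stood apart. The 3 wild-type libraries were not screened, so the low Nppa value of wild-type replicate 4 (466 CPM) could not be flagged. Irx4, a chamber myocardium factor read beside Nppa, had 23.9 CPM in Hand2 null replicate 3, against 21.6 to 21.9 CPM in the other 3 Hand2 null libraries. Its gap to the nearest library was 0.882 of the group's range, above Dixon's 95% critical value for 4 libraries, which chance passes in about 1 of 20 groups.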

How the results depend on the processing

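Of 75 alternative values for the 5 tested natriuretic genes, 73 kept their sign, and 1 passed the threshold. That was Nppb with the replicate number as a block (log2 fold change 0.70, edgeR adjusted p = 0.0309; 0.0309 to 0.527 over its alternatives). Same-numbered libraries correlated at -0.073, 0.257 and 0.166 for replicates 2, 3 and 4. Hand2 null replicates 3 and 4 each correlated best with the wild-type library of the same number. Hand2 null replicate 2 correlated best with wild-type replicate 4 (0.137). The numbers thus matched in part, and the labels name no shared litter or day. Whether they mark pairs is not settled, and they were not taken as pairs in the main fit. With the block, Nppa was at 0.58 (edgeR adjusted p = 0.0961), Corin at 0.68 (0.0323), 814 genes were higher and 565 lower, and 1 processing gene was higher. The changed signs were Npr2 (-0.042) and Myl7 (-0.057) without Hand2 null replicate 3, Npr3 (0.12) without wild-type replicate 3, Ide (-0.117) without Hand2 null replicate 4, and Myl7 without wild-type replicate 4 (-0.007) or with Hand2 null replicate 2 also left out (-0.001). With 1 library left out, values ran from 0.21 to 0.78 for Nppa, 0.29 to 1.01 for Nppb, -0.04 to 0.28 for Npr2, -0.42 to 0.12 for Npr3, -0.117 to 0.17 for Ide and -0.36 to 0.62 for Nppc, whose low counts limit it. Genes called ran from 210 to 946 higher and 46 to 652 lower. List calls ran from 0 to 1 lower for processing, 0 to 2 higher for cyclases, 1 to 2 higher for cGMP effectors, 0 to 1 higher and 0 to 1 lower for promoter factors and 1 to 3 higher for load genes. DESeq2 called 993 genes higher and 768 lower, 2 processing genes lower, 2 cyclases higher and 1 cGMP effector lower. Without Hand2 null replicate 2 and wild-type replicate 4 together, 298 genes were higher and 123 lower, with 1 processing gene lower, 0 cyclases higher and 1 cGMP effector higher. No filter gave 1 processing gene lower, and a filter at 1 CPM in 3 libraries gave 2 cyclases higher. Npr3 was at -0.16 as plain CPM, against -0.67 relative to the endothelial list. With the longest coding transcript as length, chosen after seeing the data, Npr1 was at 1.68 CPM per kilobase in Hand2 null and 1.28 in wild type, Npr2 at 1.40 in wild type, and Npr3 at 4.72 in Hand2 null and 5.27 in wild type. The cause of these changes was not tested.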
